A study of Mus musculus with 2 samples.

Results

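The genes described here build the postsynaptic side of the neuromuscular junction, the contact at which a motor nerve releases acetylcholine onto a muscle fibre. There were 10 of them, of 18193 genes named on the array, and they were taken by symbol from the array's annotation with all of their 15 probe sets: the acetylcholine receptor subunits Chrna1, Chrnb1, Chrnd and Chrng, the receptor clustering pathway of Agrn, Lrp4, Musk, Dok7 and Rapsn, and the neuregulin receptor Erbb3. A probe set is a group of short oligonucleotides on the array that reports the transcript of 1 gene. RNA came from 1 culture of Foxj3 knockout (KO) mouse skeletal myoblasts and 1 culture of Foxj3 wild-type (WT) skeletal myoblasts, and each was hybridised to 1 Affymetrix Mouse430_2 array. Both cultures were at passage 3, were grown in 20% fetal bovine serum and were harvested at 80% confluency. They were cultured without nerve as far as the labels say, and markers of differentiating muscle had signal, more of it on the WT array, as given with the receptor subunits. The labels name no strain, animal age, design of the deleted allele or way of purifying the myoblasts. With 1 array per group no difference can be set against a spread between cultures, no test was possible and no p-value is given. Every value describes these 2 arrays.

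The adult muscle receptor is a channel built of alpha, beta, delta and epsilon subunits, and the receptor of embryonic and denervated muscle holds gamma in place of epsilon. Agrin released by the nerve binds LRP4 on the muscle surface, LRP4 activates the receptor tyrosine kinase MuSK, the adaptor DOK7 keeps MuSK active from inside the cell, and rapsyn ties the receptors into clusters. Cultured muscle cells express receptor subunits at low levels as myoblasts and at higher levels as they differentiate, under the myogenic factors MyoD and myogenin, which bind E-boxes, sites of the form CANNTG, in the subunits' promoters.

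The promoters of 3 receptor subunits and of Musk are shown because Myog and Myod1, the genes of these factors, differed in opposite directions between the arrays. They were chosen after their E-boxes had been counted. Each line gives the 250 bases before the RefSeq gene start (build GRCm38.p6), 5′ to 3′ on the gene's strand, and the capitals mark every CANNTG.
Chrna1 (chr2:73580339-73580588, minus strand): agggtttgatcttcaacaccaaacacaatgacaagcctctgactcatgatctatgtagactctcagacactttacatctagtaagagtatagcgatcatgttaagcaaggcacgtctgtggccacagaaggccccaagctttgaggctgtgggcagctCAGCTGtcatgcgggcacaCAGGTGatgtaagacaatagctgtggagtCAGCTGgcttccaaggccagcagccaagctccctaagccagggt
Chrnb1 (chr11:69795938-69796187, minus strand): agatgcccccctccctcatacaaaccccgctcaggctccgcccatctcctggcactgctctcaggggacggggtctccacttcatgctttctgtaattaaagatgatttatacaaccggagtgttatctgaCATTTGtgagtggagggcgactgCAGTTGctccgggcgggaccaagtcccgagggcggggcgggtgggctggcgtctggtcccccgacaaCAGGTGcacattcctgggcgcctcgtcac
Chrng (chr1:87205561-87205810, plus strand): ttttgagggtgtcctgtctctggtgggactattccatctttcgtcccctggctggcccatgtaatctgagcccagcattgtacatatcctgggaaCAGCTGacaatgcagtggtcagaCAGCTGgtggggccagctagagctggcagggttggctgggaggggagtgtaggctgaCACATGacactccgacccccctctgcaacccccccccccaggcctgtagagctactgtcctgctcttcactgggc
Musk (chr4:58285712-58285961, plus strand): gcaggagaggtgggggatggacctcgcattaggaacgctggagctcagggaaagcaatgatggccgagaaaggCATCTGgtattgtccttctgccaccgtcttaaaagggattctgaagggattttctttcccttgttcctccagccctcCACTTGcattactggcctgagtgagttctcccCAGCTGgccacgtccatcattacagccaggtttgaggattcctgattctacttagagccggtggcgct

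Each of these windows held 3 copies of CANNTG. The windows not shown, 2 each for Agrn and Dok7, held 0 or 1 CANNTG and 0 CAGCTG. The form CAGCTG, which reads the same on both strands and is counted within CANNTG, occurred 2 times in the Chrna1 window, 2 times in the Chrng window, 1 time in the Musk window and 0 times in the Chrnb1 window. Among 32851 mouse promoter windows of the same length, 66.2% held at least 1 CANNTG, 31.8% held 2 or more and 12.2% held 3 or more, 13% held at least 1 CAGCTG and 1.26% held 2 or more CAGCTG. The RefSeq table had windows for 6 of the 10 genes, 8 windows in all, and Chrnd, Rapsn, Lrp4 and Erbb3 were not matched. CCGGAA, the N-box of synaptic genes, and the MEF2 motif, both searched on both strands, occurred in 0 of the 8 windows, against 12% and 2.92% of all windows. These matches describe letters in a window and say nothing of binding.

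Myog, which encodes myogenin, read 487.79 on the KO array and 1753.96 on the WT array, 3.60-fold lower in the KO culture (log2 ratio -1.85), while Myod1 read 1750.95 on the KO array and 631.27 on the WT array, 2.77-fold higher (log2 ratio 1.47). Foxj3 itself read 77.28 on the KO array and 495.51 on the WT array by its brightest probe set (log2 ratio -2.68). A second Foxj3 probe set read 99.40 on the KO array and 79.74 on the WT array (log2 ratio 0.32), and another gave no signal over the detection floor, so the probe sets do not settle the check of the label. The floor, set at the 40th percentile of the pooled signals, was 47.04. Signals under it were raised to it before log2, and a gene counts as measured when its brightest probe set was over it on at least 1 array. All 10 junction genes were measured, as were 14597 genes in all. The myoblast label was set against 8 markers. All 8 were measured on these arrays, with a median log2 ratio of -0.10, and by brightest probe set 1 of them, Myod1, differed by 2-fold or more. Of their 18 measured probe sets 5 were higher by 2-fold or more, from Myod1, Ncam1, Pax7 and Vcam1, and 3 were lower, from Ncam1. Over all measured probe sets 5.44% were higher and 6.29% lower by this margin. Vcam1 gave 0.09 on the log2 scale by its brightest probe set and 2.59 and 2.97 by its others.

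Of the 10 junction genes, Lrp4 and Erbb3 (2 genes) were lower by 2-fold or more in the KO culture, and 0 were higher by 2-fold or more. Over all measured genes 6.72% were lower and 3.73% higher by this margin. The ratios of the other 8 genes by brightest probe set lay within 2-fold, with that of Musk known only as a bound and that of Chrng opposed by its second probe set. In whole cultures, fewer cells that express a gene and less RNA of it per cell cannot be told apart. At 1.5-fold, 3 of the 10 were lower and 1 higher, beside 19.3% and 12.8% of all measured genes, and at 3-fold 1 was lower and 0 were higher, beside 1.51% and 0.747%. Counted by probe set, 12 of the 15 were measured, of which 2 were lower and 1 higher by 2-fold or more, beside 6.29% and 5.44% of all measured probe sets. By sign, 6 of the 10 ratios were above 0 and 4 below, where 53.7% of all measured genes were below 0, with a median log2 ratio of 0.15 beside a median of -0.06 over all measured genes. In 6 of the 10, with Musk counted by its bound, the ratio was smaller than 0.63, the SD of a log2 ratio between probe sets of the same gene, which is a technical spread within these arrays and leaves out differences between cultures.

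**Figure D1:**
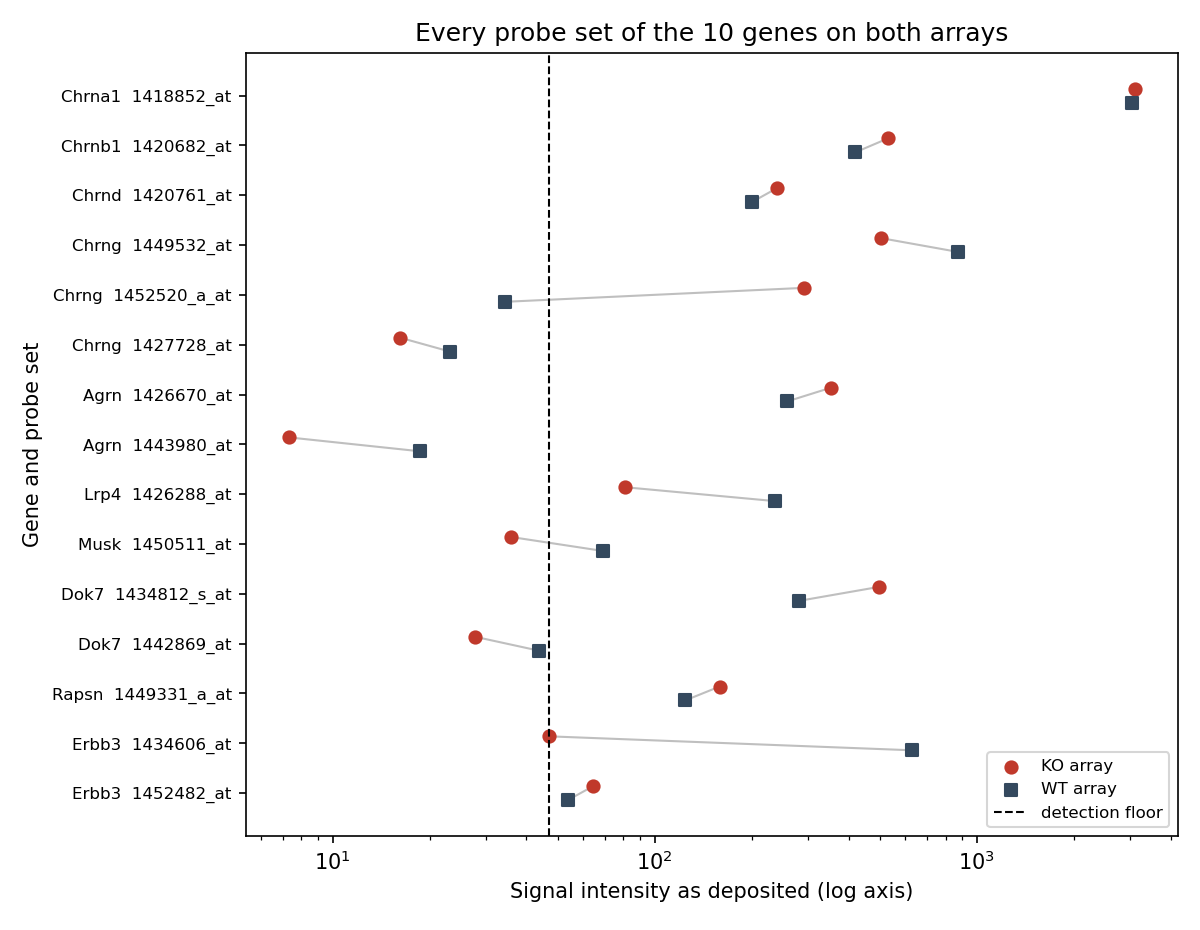
Signal intensity as deposited (x axis, log scale) of all 15 probe sets of the 10 genes (y axis), with circles for the KO array, squares for the WT array and a dashed line at the detection floor of 47.04. The KO and WT points of Chrna1 nearly coincide, and the widest gaps belong to the brightest Erbb3 probe set (46.94 on the KO array, 628.48 on the WT array) and to Chrng 1452520_a_at (290.09 on the KO array, 34.20 on the WT array).

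The receptor subunits as a group were close to level. Chrna1, which encodes the alpha subunit that forms most of the acetylcholine binding site, read 3103.88 on the KO array and 3028.60 on the WT array by its single probe set (log2 ratio 0.04). Its sign turned under 3 other scalings of the arrays, to values no lower than -0.08. Chrnb1, the beta subunit gene, read 530.21 on the KO array and 419.46 on the WT array, 1.26-fold higher in the KO culture (log2 ratio 0.34). Chrnd, the delta subunit gene, read 239.47 on the KO array and 200.10 on the WT array, 1.20-fold higher (log2 ratio 0.26). Chrnd and Chrng are neighbours on mouse chromosome 1. These 3 differences were all smaller than the spread between probe sets of a gene.

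Chrng, which encodes the gamma subunit of the embryonic receptor, was the subunit with the lowest ratio by its brightest probe set and the only one with several probe sets. The brightest, 1449532_at, read 503.18 on the KO array and 877.35 on the WT array, 1.74-fold lower in the KO culture (log2 ratio -0.80). A second, 1452520_a_at, went the other way, with 290.09 on the KO array and 34.20 on the WT array, at least 6.17-fold higher because the WT signal lay under the floor. The remaining one, 1427728_at, did not reach the floor on either array, at 16.21 on the KO array and 23.20 on the WT array. Among 6251 genes with more than 1 measured probe set, the log2 ratios within a gene spanned a median of 0.82. They spanned at least 3.43 for Chrng, since 1 of the signals lay under the floor. With signals raised to the floor, 30 genes (0.48%), Chrng among them, had a span of this width or more. The probe sets give no single direction for Chrng. The mean over its 3 probe sets, in which 1427728_at counts as 0, was 0.61, with the opposite sign to the brightest. The adult subunit gene Chrne did not reach the floor on either array, at 20.81 on the KO array and 28.42 on the WT array.

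Over the 4 subunits the median log2 ratio was 0.15, and 0 of 4 differed by 2-fold or more in either direction. Beside them, markers of differentiating muscle were lower in the KO culture: all of the 11 measured markers (11 of 11) lay below 0, 10 by 2-fold or more, and their median was -2.67 on the log2 scale, a level 6.36-fold lower. The summed signal of the 11 markers was 6059 on the KO array and 27796 on the WT array, while that of the brightest probe sets of the 4 receptor subunits was 4377 on the KO array and 4526 on the WT array. Most of the subunit sum came from Chrna1, with 3103.88 on the KO array and 3028.60 on the WT array. The second Chrng probe set, higher on the KO array, is not in the sum. Among the markers, Actc1, the cardiac actin gene expressed in developing skeletal muscle, read 1004.97 on the KO array and 4191.43 on the WT array (4.17-fold lower). The marker with the smallest difference was Ckm, muscle creatine kinase, at 267.01 on the KO array and 363.16 on the WT array by its brightest probe set and a log2 ratio of -1.41 by the other. By brightest probe set the 4 subunits lay between -0.80 and 0.34, where Ckm also lay at -0.44, and the other 10 of the 11 markers lay at -1.84 or lower. Whether the marker shift has a part in the junction genes' values was not tested.

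**Figure D2:**
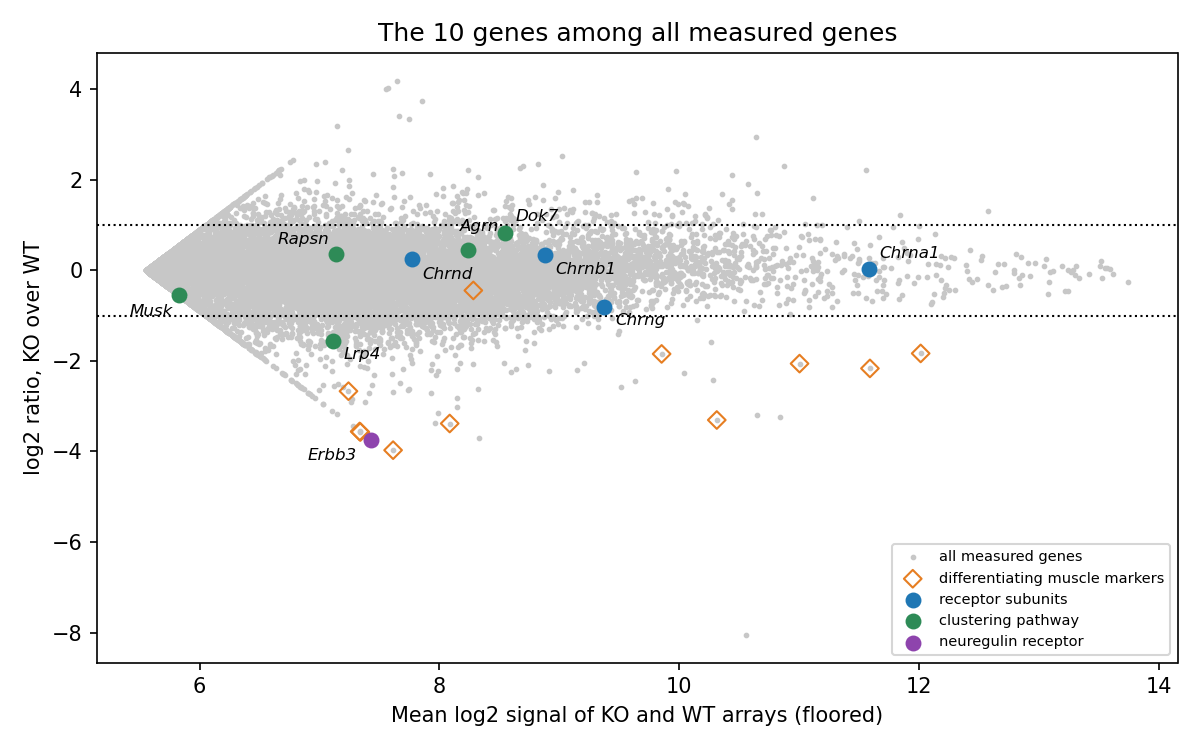
Log2 ratio KO over WT (y axis) on the mean log2 signal of both arrays (x axis, signals raised to the floor first) for all 14597 measured genes in grey, with the receptor subunits, clustering pathway and neuregulin receptor as filled circles and 11 differentiating muscle markers as open diamonds. The receptor subunits lie between -0.80 and 0.34, while Lrp4 (-1.55) and Erbb3 (-3.74) lie below the lower 2-fold line, as do 10 of the 11 markers.

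The clustering pathway was mixed, with 3 of its 5 genes higher and 2 lower in the KO culture. Lrp4, the agrin receptor and a relative of the LDL receptor, read 80.70 on the KO array and 237.03 on the WT array by its single probe set, 2.94-fold lower in the KO culture (log2 ratio -1.55). Of all measured genes, 1.64% had a lower ratio. Both signals were over the floor, and the log2 ratio stayed between -1.60 and -1.15 under all 9 alternatives that changed scaling, floor or probe set choice.

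Musk, the kinase that LRP4 activates, was dim. It read 35.87 on the KO array, under the floor, and 69.11 on the WT array, and was at least 1.47-fold lower in the KO culture (log2 ratio -0.56). This bound is smaller than the spread between probe sets, and the true ratio may be larger. With the floor raised to the 60th percentile it was no longer measured.

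The pathway's ligand and its intracellular adaptors had higher signals on the KO array by brightest probe set. Agrn, which encodes agrin, read 354.00 on the KO array and 257.51 on the WT array (1.37-fold, log2 ratio 0.46), and its other probe set was under the floor, at 7.30 on the KO array and 18.72 on the WT array. Agrin made by muscle cells lacks the inserts that give the nerve's agrin its strong clustering activity, and the array does not report which form these signals came from. Dok7 read 498.24 on the KO array and 281.48 on the WT array (1.77-fold, log2 ratio 0.82), the highest ratio of the 10 genes by brightest probe set. This value came from an _s_at probe set, a kind that can match transcripts of several genes, and the other Dok7 probe set was under the floor at 27.60 on the KO array and 43.63 on the WT array. Rapsn, which encodes rapsyn, read 159.23 on the KO array and 124.34 on the WT array (1.28-fold, log2 ratio 0.36). The ratios of Agrn and Rapsn were smaller than the spread between probe sets of a gene.

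The medians of receptor subunits and clustering pathway lay close together. The clustering pathway had a median log2 ratio of 0.36 and the subunits one of 0.15, a difference of -0.21 (subunits minus clustering pathway), which no test could weigh here. Without _s_at and _x_at probe sets Dok7 was no longer measured, the median of the clustering pathway became -0.13 and the difference turned to 0.27. It was 0.069 with the mean over probe sets, so its sign depends on the probe sets used. By brightest probe set the ratios within the clustering pathway spanned -1.55 to 0.82, a wider range than the -0.80 to 0.34 of the subunits. With the second Chrng probe set, at least 2.62 on the log2 scale, the subunits had the wider range.

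**Figure D3:**
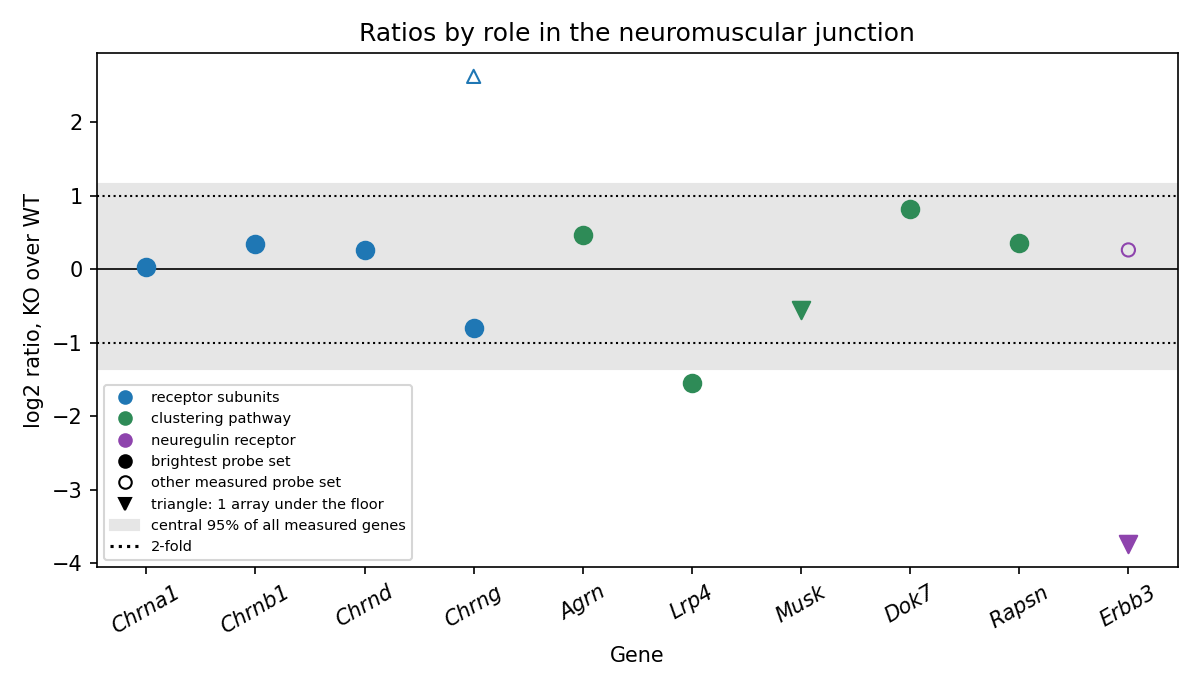
Log2 ratio KO over WT (y axis) of the 10 genes (x axis), coloured by role, with filled points for the brightest probe set, open points for other measured probe sets and triangles where 1 array was under the floor. The grey band holds the central 95% of all measured genes (-1.36 to 1.16) and dotted lines mark 2-fold. Lrp4 (-1.55), the brightest Erbb3 probe set (-3.74) and the second Chrng probe set (2.62) lie outside the band.

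Erbb3, the neuregulin receptor, had the lowest ratio of the 10 genes. Neuregulins signal through pairs of ERBB proteins, and ERBB3, whose own kinase is weak, acts with ERBB2 or ERBB4. By its brightest probe set, 1434606_at, Erbb3 read 46.94 on the KO array and 628.48 on the WT array, at least 13.4-fold lower in the KO culture (log2 ratio -3.74). The KO signal lay just under the floor. With signals raised to the floor, 0.0137% of measured genes had a lower ratio. Its other probe set, 1452482_at, read 64.45 on the KO array and 53.74 on the WT array (log2 ratio 0.26), near the floor on both arrays. The span between the probe sets was at least 4.002, and with signals raised to the floor 11 of the 6251 genes with several measured probe sets (0.18%), Erbb3 among them, had a span of this width or more. Erbb3 and Chrng were the junction genes with more than 1 measured probe set, and in 0 of these 2 did the probe sets have the same sign. Over the array, 3047 genes had exactly 2 probe sets with KO and WT signals over the floor, and the signs were the same in 52.8% of them.

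Erbb3 is also expressed by Schwann cells, the glia of nerves, and their markers had similar signals on both arrays. Of 9 annotated Schwann cell markers 6 were measured, 0 of them different by 2-fold or more, and their median ratio was 0.15 on the log2 scale. The summed signal of all 9, with those under the floor included, was 769.58 on the KO array and 722.28 on the WT array. Sox10, a defining transcription factor of these cells, read 113.92 on the KO array and 87.98 on the WT array by its brightest probe set, while another gave -0.60 on the log2 scale. Egr2, Cdh19 and Mag were under the floor on both arrays. Markers of neurons and motor nerve terminals were similar on both arrays, with 5 of 10 measured and 0 different by 2-fold or more. The summed signal of all 10, with those under the floor included, was 705.47 on the KO array and 622.87 on the WT array. The 5 measured fibroblast markers had a median of 0.49, with 0 different by 2-fold or more by brightest probe set. Another Col1a1 probe set gave at least 1.15 on the log2 scale. All 7 annotated fibroblast markers, 2 of them under the floor on both arrays, summed to 1810 on the KO array and 1370 on the WT array. Their part in the results was not tested.

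Other genes of the junction were taken as 8 lists with 76 genes, of which 64 were measured, and their medians are of log2 ratios. Differences of 2-fold or more were found in 5 lower genes (7.81%) and 7 higher genes (10.9%), beside 6.72% and 3.73% of all measured genes. The median log2 ratio was -0.06, as over all measured genes. The lists were drawn up with earlier results known, so these shares are a description. In the list of signals downstream of MuSK, 1 of 14 measured genes was lower and 2 were higher by 2-fold or more, with a median of 0.26. Dvl1, a Dishevelled protein that binds MuSK, read 141.48 on the KO array and 588.51 on the WT array (4.16-fold lower, and -0.44 on the log2 scale by the other probe set). Rac1, a small GTPase of the actin skeleton, read 1696.33 on the KO array and 611.02 on the WT array (2.78-fold higher, and 0.98 on the log2 scale by its other probe set). Crkl, an adaptor that binds phosphorylated DOK7, read 218.83 on the KO array and 84.92 on the WT array (2.58-fold higher), and the other measured probe set gave at least 1.40 on the log2 scale. In each of these 3 genes both measured probe sets had the same sign, as in the 52.8% of genes given above. By other probe sets, more genes of this list had large ratios: of its 38 measured probe sets 10 were higher by 2-fold or more, from 6 genes, and 1 was lower, beside 5.44% and 6.29% of all measured probe sets. Ctnnb1, beta-catenin, read 2341.98 on the KO array and 2221.97 on the WT array by its brightest probe set (log2 ratio 0.08), while its others had log2 ratios of at least 3.55 and of 2.42. Cttn, the actin-binding protein cortactin, gave 0.39 on the log2 scale by its brightest probe set. Its others gave up to 2.73, with 1 of them at -0.05 or lower. Crk gave 0.54 by its brightest probe set and from -0.58 to 2.83 by its others, with 2 of them below 0. These genes were chosen after their values were seen.

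In the list of neuregulin signalling and synaptic transcription factors, which leaves out Erbb3, most genes lay within 2-fold. Of 8 measured genes 0 were lower and 1 was higher by 2-fold or more, with a median of 0.07. Erbb2, the partner receptor, read 94.72 on the KO array and 134.06 on the WT array (log2 ratio -0.50), and Erbb4 was under the floor on both arrays. Egr3, a transcription factor, read 264.58 on the KO array and 98.75 on the WT array (2.68-fold higher), while the other probe set gave -0.62 on the log2 scale. Of the list's 13 measured probe sets 2 were higher and 0 lower by 2-fold or more, beside 5.44% and 6.29% of all measured probe sets. The second was from Etv5, at least 2.15 on the log2 scale, against 0.23 by its brightest.

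Among activity-dependent regulators of receptor genes, 2 of 7 measured genes, Myog and Hdac4, were lower and 1, Camk2b, was higher by 2-fold or more, with a median of -0.49. With the mean over probe sets this median was -0.0077. Of the list's 16 measured probe sets 2 were lower and 2 higher by 2-fold or more, beside 6.29% and 5.44% of all measured probe sets. The second higher one was from Camk2d, at 1.05 on the log2 scale, against -0.57 by its brightest. Hdac4, a class IIa histone deacetylase, read 76.93 on the KO array and 169.08 on the WT array (2.20-fold lower, and -0.34 on the log2 scale by the other measured probe set). Camk2b, a calcium/calmodulin-dependent kinase, read 769.98 on the KO array and 0.92 on the WT array by its single probe set, at least 16.4-fold higher. The WT value was near 0 and no other probe set was there to set it against. Dach2, a repressor of Myog in innervated muscle, was under the floor on both arrays.

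Among proteins around the receptor, single genes differed in both directions. Of 10 measured scaffold and membrane genes, 1 was lower and 1 higher by 2-fold or more, with a median of -0.16 that turned to 0.08 with the mean over probe sets and to 0.01 without _s_at and _x_at probe sets. Sntb1, which encodes the scaffold protein beta1-syntrophin, read 54.12 on the KO array and 314.15 on the WT array by its brightest probe set (5.80-fold lower). Of its 4 other measured probe sets 3 were below 0, the lowest at -2.17, and 1 was at 0.34. Prkar1a, a regulatory subunit of protein kinase A, read 1809.99 on the KO array and 801.33 on the WT array (2.26-fold higher, with both other probe sets above 0). Of the list's 35 measured probe sets 7 were lower by 2-fold or more, from Sntb1 and Ncam1. Another 4 were higher, from Dtna, Ncam1, Plec and Prkar1a. Over all measured probe sets 6.29% were lower and 5.44% higher.

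Of 12 measured genes of the synaptic basal lamina, 0 were lower and 1 was higher by 2-fold or more, with a median of -0.22. By brightest probe set the higher gene was Col4a2, a type IV collagen chain, at 175.05 on the KO array and 68.85 on the WT array (2.54-fold). Of the list's 20 measured probe sets 2 were higher and 0 lower by 2-fold or more, beside 5.44% and 6.29% of all measured probe sets. The other higher one was from Lamb1, at least 2.65 on the log2 scale, against 0.20 by its brightest. Lamc1 gave 0.93 by its brightest probe set and -0.82 by the other. Lamb2, the laminin beta2 chain that is concentrated at the synapse, read 84.99 on the KO array and 146.17 on the WT array (log2 ratio -0.78). Ache, acetylcholinesterase, and Colq, its collagen tail, were under the floor on both arrays. The 5 glycosylation enzymes whose genes are mutated in congenital myasthenic syndromes had a median of -0.43 with 0 different by 2-fold or more. By brightest probe set they were led by Dpagt1, at 61.48 on the KO array and 111.50 on the WT array (log2 ratio -0.86). Next was Gfpt1, at 278.18 on the KO array and 432.62 on the WT array (log2 ratio -0.64). The other measured Gfpt1 probe set gave -0.96 on the log2 scale. Alg14 gave 0.44 by its brightest probe set and -0.74 and -0.41 by its others.

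The nicotinic subunits other than those of muscle were mostly near the floor. Of 8 measured genes 7 had ratios above 0, where 53.7% of all measured genes were below 0. Their median was 0.20, and 1 was higher and 1 lower by 2-fold or more, beside 3.73% and 6.72% of all measured genes. Of the list's 14 measured probe sets 2 were higher and 1 lower by 2-fold or more, beside 5.44% and 6.29% of all measured probe sets. Chrna5, Chrna9 and Chrnb3 were over the floor on the KO array alone, so the floor fixed their signs above 0 and their ratios are only bounds. The count of 7 genes above 0 includes them and cannot show a shared direction. Another Chrna4 probe set lay at -0.55 or lower on the log2 scale. Chrna3 read 137.20 on the KO array and 52.61 on the WT array (2.61-fold higher, with both other probe sets above 0, up to 0.18). Chrna6 read 55.54 on the KO array and 116.09 on the WT array (2.09-fold lower), while the other probe set gave at least 1.496 on the log2 scale.

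**Figure D4:**
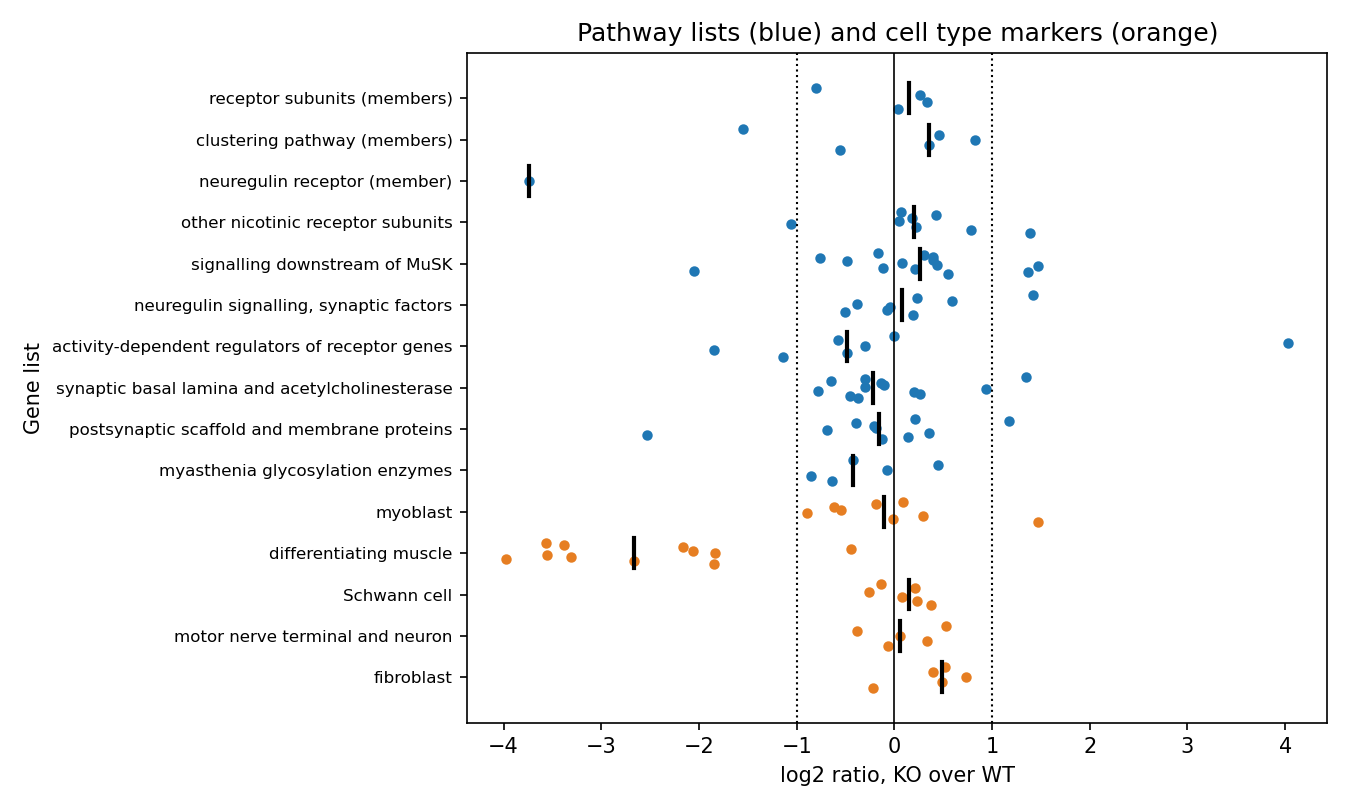
Log2 ratio KO over WT (x axis) of each measured gene in the lists (y axis), with blue points for genes of the junction, orange points for cell type markers, black bars for list medians and dotted lines at 2-fold. The differentiating muscle markers lie to the left (median -2.67), while the medians of the lists of junction genes other than Erbb3 lie between -0.49 and 0.36. Chrne was under the floor on both arrays and is not drawn.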

How the data were processed

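Total RNA (10 µg per sample) was made into biotinylated cRNA and hybridised to 1 array per group, per the labels' protocols. The authors deposited linear intensities, 1 value for each probe set on each array; their summarisation and scaling are not given in the sources used here. Trimmed of 2% at either end, the values averaged 125.50 (KO) and 126.10 (WT), and they were used without rescaling. The scanner records differed in 2 fields, fluidics module and scan time, per the file headers.

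Of 45037 probe sets, 34945 had 1 symbol in the platform annotation, which can be old, 932 had several and 9160 none; 34741 were updated through Entrez identifiers (RefSeq, GRCm38.p6). Probe sets with several symbols named no gene. Over the floor were 60.8% of probe sets on the KO array and 59.2% on the WT array. A gene was represented by its brightest probe set (highest mean log2). Ratios are KO over WT. With 1 array under the floor a ratio is a bound, "at least N-fold". The number of arrays limits precision.

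The 10 genes were chosen, and 13 lists (8 of pathway genes, 5 of markers) drawn up, with earlier results of these data known. Genes named: all 10 with every probe set, Chrne, Foxj3, Myog and Myod1; from each of the 8 pathway lists up to 4 genes with the largest ratio past 2-fold, otherwise the 2 with the largest ratio; any other named gene was chosen after its values were seen. The calculation was tested on simulated data. The alternatives are given in the closing section. Python 3.11.15, numpy 2.4.6, pandas 2.3.3 and statsmodels 0.14.6 (loess) were used.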

Additional observations from a re-analysis of the deposited data

How the results depend on the processing

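The alternatives changed the scaling (loess with a span of 0.3, quantile, or equal array medians), the floor (20th percentile, 60th percentile, none, or added as a pseudocount), the probe sets (their mean per gene, or only those not named _s_at or _x_at) and the threshold (1.5-fold or 3-fold). A ratio was counted as moved when it shifted by more than the spread between probe sets of a gene (SD 0.63, divided by the square root of the number of genes for a median). The Erbb3 log2 ratio of -3.74 was -2.86 with the floor at the 60th percentile, -2.85 with the pseudocount and -1.74 with the mean over probe sets. The clustering pathway median of 0.36 was -0.13 and its difference from the receptor subunits 0.27 without _s_at and _x_at probe sets, since Dok7 was then not measured, and 0.069 with the mean over probe sets. The receptor subunit median stayed between 0.10 and 0.30 under all 9 alternatives that apply to it. Of the 10 genes, 1 was at least 1.5-fold higher, and 1 was at least 3-fold lower. Of the other pathway genes, 12 were at least 2-fold different, 21 at least 1.5-fold and 4 at least 3-fold. Over all genes, the 544 higher calls became 873 with the floor at the 20th percentile, 353 at the 60th, 898 without a floor, 313 with the pseudocount, 330 with the mean over probe sets, 1866 at 1.5-fold and 109 at 3-fold. The 981 lower calls became 1241 with the floor at the 20th percentile, 680 at the 60th and 1267 without a floor. They became 485 with the pseudocount, 490 with the mean over probe sets, 2811 at 1.5-fold and 221 at 3-fold. Lower genes made up 64.3% of calls, and 57.2% to 69.2% under the other scalings. Among single genes Chrng moved, to 0.61 with the mean over probe sets. Low signal limits Musk and the second Erbb3 probe set, which lay near the floor. No paired analysis was possible because each group has 1 array.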
